A study of Mus musculus with 16 samples.

Results

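The genes described here mostly encode the cytosolic translation initiation factors eIF1 to eIF6 and the elongation factors eEF1 and eEF2. They were every gene of the count table whose symbol began with Eif1 to Eif6, Eef1 or Eef2. The Eif2ak kinases were left out, which gave 60 genes of the 24411 listed. Some of the 60 regulate or modify the factors, such as Eef2k, Eef2kmt and Eif4ebp1, and are counted with them as factors below. Initiation factors bring the initiator tRNA, the small ribosomal subunit and the capped mRNA together and find the start codon, and elongation factors then deliver each aminoacyl-tRNA and move the ribosome along. Several of these mRNAs, like those of ribosomal proteins, begin with a terminal oligopyrimidine (TOP) tract, through which mTORC1 and LARP1 control their translation and stability. Muscle stem cells (MuSCs) are known to hold protein synthesis low while quiescent, in part through phosphorylation of eIF2 alpha, and to raise it when they activate after injury.

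Bulk total RNA of MuSCs isolated by FACS from mouse skeletal muscle was sequenced in 4 groups of 4 libraries, 16 in all. The groups were uninjured control, uninjured TRF2 knockout, control 3 days after injury (3 DPI) and TRF2 knockout 3 DPI; the injury was 10 µl of notexin, a myotoxic phospholipase, injected into the tibialis anterior muscle. TRF2, encoded by Terf2, is a telomere-binding protein of the shelterin complex, and the knockout was a floxed TRF2 allele on the C57BL/6 background deleted by tamoxifen through Pax7CreERT2, which is active in cells that express Pax7. The labels call the controls wild type; whether they carried Cre or received tamoxifen is not given in the sources used here, nor is which sex each library came from. The study describes mice 3 months old for MuSCs of these genotypes and states, and sex-matched cohorts. The sort kept CD45-, CD31-, CD11b-, Sca1- cells that stained for alpha7-integrin and VCAM or CD34.

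Libraries held 665776 to 1351130 estimated counts when uninjured and 620506 to 1304088 at 3 DPI. A count was detected for at least 19996 genes in every library but 1, the library labelled TRF2 knockout 3 DPI replicate 3, in which 15387 genes had one. The 12 MuSC markers summed to 4008 to 6146 CPM (counts scaled to a common library total after TMM adjustment) in uninjured controls, 2317 to 3097 in uninjured knockouts, 1076 to 1373 in controls at 3 DPI and 565 to 803 in libraries labelled knockout at 3 DPI, with no marker at 0 throughout a group. The 10 myeloid markers summed to 68.3 to 114, 121 to 188, 5149 to 6627 and 2148 to 5979 CPM in the same order, again with none at 0 throughout a group. Terf2 itself stood at 66.3 to 94.5 CPM in uninjured controls and 27.2 to 58.7 in uninjured knockouts, with no overlap. At 3 DPI it stood at 35.5 to 48.6 CPM in controls and at 52.6, 21.9, 66.9 and 89.7 in the 4 libraries labelled TRF2 knockout, so 3 of these 4 lay above every control (means 57.8 and 43.8 CPM). At 3 DPI the target gene therefore goes against the label, and every direction given below for the genotype at 3 DPI, for injury in the knockout or for the interaction rests on the labels. In bulk libraries, fewer cells of a type and less RNA per cell cannot be told apart.

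Counted together, the 60 factors made up 1.37% to 1.52% of the counts in uninjured controls and 0.765% to 1.11% in uninjured knockouts. At 3 DPI the shares were 1.01% to 1.35% in controls and 0.553% to 0.905% in the libraries labelled knockout. Libraries labelled control and knockout did not overlap in either state. Leaving out Eef1a1, the most abundant factor, the shares were 0.992% to 1.12% and 0.606% to 0.819% without injury, and 0.784% to 1.05% and 0.476% to 0.721% at 3 DPI, so the separation did not rest on that gene. Other classes of RNA moved with this share. The 84 ribosomal protein genes took 2.74% to 3.13% of counts in uninjured controls, 1.25% to 2.02% in uninjured knockouts, 1.73% to 2.45% in controls at 3 DPI and 0.886% to 1.495% in libraries labelled knockout at 3 DPI. Olfactory, vomeronasal, taste and trace amine-associated receptor genes (1508) were taken here as a rough measure of background reads. They took 0.218% to 0.451%, 0.435% to 0.599%, 0.334% to 0.570% and 0.448% to 0.775% in the same order. The 1236 predicted genes with Gm symbols took 0.687% to 1.01% in uninjured controls and 1.06% to 1.26% in uninjured knockouts, without overlap, and 0.890% to 1.16% in controls and 1.07% to 2.39% in libraries labelled knockout at 3 DPI, highest in knockout replicate 3. The part that such background reads play in the results below was not tested.

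**Figure D1:**
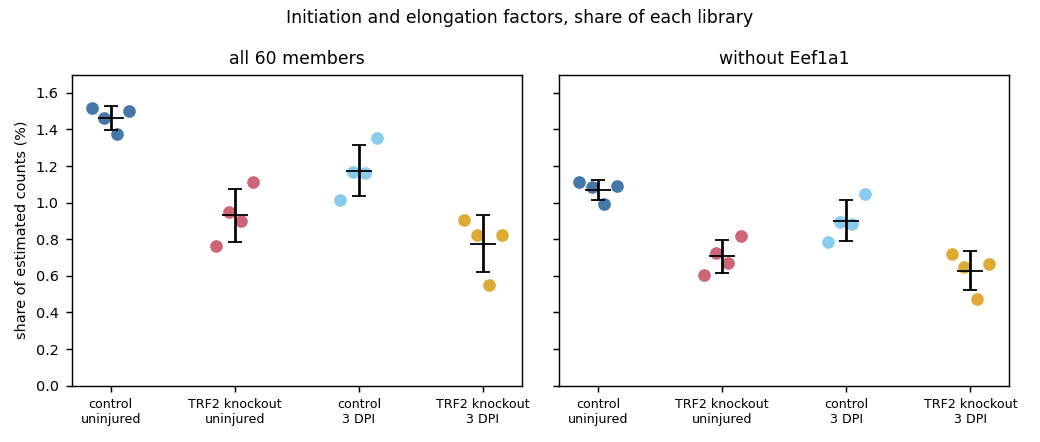
Share of each library's estimated counts (%, vertical axis) taken by the 60 initiation and elongation factors, and by the same genes without Eef1a1, in the 4 groups of 4 libraries; points are libraries, the bar is the mean and the whiskers are 1 SD. The uninjured control libraries sit between 1.37% and 1.52% and the uninjured knockout libraries between 0.765% and 1.11%.

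On a per-length scale (TPM, transcripts scaled to a common total after dividing by length, comparable between genes), the factors spanned a wide range of levels. Eef1a1, the GTPase that carries aminoacyl-tRNA to the ribosome, was the highest, with a mean of 3826 TPM over the 16 libraries, followed by Eef2, the translocase, at 1927 TPM. The RNA helicase Eif4a1 (438.7), the eEF1 subunit Eef1g (398.6) and Eif5a (346.7) came next. Leaving out Eif3j1, the lowest were Eif5a2, the second eIF5A gene, at 10.99 TPM, the eIF2B subunit Eif2b1 at 16.3 and Eif4e1b at 16.57. Eif3j1 averaged 15.6 TPM, but only 4 libraries gave it a count. In the others the counts of the pair went to its copy Eif3j2. Low members lay near the level of the receptor genes above. Those with a mean at or under the receptor genes' 95th percentile numbered 2 in uninjured controls and 6 in uninjured knockouts. At 3 DPI they numbered 2 in controls and 10 in libraries labelled knockout, with Eif3j1 among the 10. A difference in those members may not be detectable over that background.

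Sequence around the transcription start is shown for 9 factors, because TOP mRNAs are defined by a pyrimidine tract at the very start of the transcript. Each line runs from 25 bases before the start to 25 after it on the gene's strand (RefSeq, GRCm38.p6), with the longest unbroken run of C or T in capitals where it reached 8 bases. The first 5 genes were lower in uninjured knockouts and hold such a run, the next 3 were lower and hold none, and Eif2b5, an eIF2B subunit that did not pass the test, holds the longest run of any member with an entry (21 bases).
Eef1a1, chr9:78481700-78481749, minus strand: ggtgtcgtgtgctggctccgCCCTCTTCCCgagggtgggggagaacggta
Eef2, chr10:81176606-81176655, plus strand: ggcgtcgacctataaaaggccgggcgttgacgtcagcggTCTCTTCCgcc
Eif3f, chr7:108934390-108934439, plus strand: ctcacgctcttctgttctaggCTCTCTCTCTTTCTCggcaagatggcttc
Eif3k, chr7:28981864-28981913, minus strand: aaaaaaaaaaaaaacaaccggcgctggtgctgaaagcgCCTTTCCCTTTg
Eif3l, chr15:79075198-79075247, plus strand: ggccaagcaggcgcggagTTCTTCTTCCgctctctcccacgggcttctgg
Eef1b2, chr1:63176806-63176855, plus strand: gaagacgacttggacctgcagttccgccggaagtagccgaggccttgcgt
Eif4a1, chr11:69672399-69672448, minus strand: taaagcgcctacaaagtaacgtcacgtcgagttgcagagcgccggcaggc
Eif4b, chr15:102073748-102073797, plus strand: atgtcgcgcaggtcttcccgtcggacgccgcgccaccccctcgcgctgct
Eif2b5, chr16:20498792-20498841, plus strand: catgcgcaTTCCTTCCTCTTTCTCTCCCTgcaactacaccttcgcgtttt

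A run of at least 8 C or T (gene strand only, anywhere in these 50 bases) was present for 6014 of the 27025 genes with an entry, 22.3%, and for 14 of the 46 members with one, 30.4%. Among members lower in uninjured knockouts that have an entry it was present in 5 of 9 (55.6%), and among members tested and not called in 9 of 36 (25%). These are descriptions with no test, the annotated start can differ from the one used in these cells, and a match is not shown to be a TOP tract. Eef1d, Eif3e and Eif3h, also lower, had no entry.

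The first comparison asked how the factors differed between TRF2 knockout and control in uninjured MuSCs. Each library carries a code in the sample records, and no code is shared between these groups. Anything the code marks and the genotype therefore cannot be told apart here. The summed MuSC markers (4008 to 6146 CPM in controls, 2317 to 3097 in knockouts) and myeloid markers (68.3 to 114 and 121 to 188 CPM) also separated these groups without overlap, and their part in the result was not tested. A gene was called where edgeR's quasi-likelihood test gave a Benjamini-Hochberg adjusted p under 0.02, over all genes tested, and the fold was over 1.5. Of the 58 members tested, 12 were called lower in the knockout and 0 higher. Over all 14048 genes tested, 2.63% were called lower and 0.584% higher, which is 370 and 82 genes. The members' median log2 fold change was -0.51, beside 0.058 over all genes, and 47 of the 58 estimates were below 0. At an unadjusted p under 0.05, 27 members were lower and 0 higher, beside 10.5% and 8.98% of all genes. All 4 knockout libraries lay below all 4 controls for 19 members, and above them for 0, beside 9.18% and 3.43% of all genes. Scaling to library size alone changed the split of all called genes to 176 higher and 212 lower, and that of the members to 0 and 9. Fewer members were called lower with limma on log2 CPM, the kind of test the study used (3, beside 142 of all genes). The study reported more genes in both directions from its own fit, so its totals were not reproduced here. Fewer were also called lower with all 16 libraries in 1 fit (2, beside 70), with the rescaled table (0, beside 11) and without control replicate 2 (7, beside 225).

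Of the elongation factors, Eef1a1, Eef1b2, Eef1d and Eef2 were called lower. Eef1a1 stood at 4826, 4339, 4040 and 5342 CPM in the 4 uninjured control libraries and at 1442, 2283, 2143 and 2940 in the knockouts, in order of replicate. Eef2 stood at 4785, 4344, 4151 and 5972 CPM in controls and 1484, 2297, 1856 and 2925 in knockouts. For both genes every knockout library was below every control library, and replicate 1 was the lowest knockout. Eef1a1 fell by 0.95 on the log2 scale (SE 0.20, edgeR adjusted p = 0.00151) and Eef2 fell by 1.05 (SE 0.20, edgeR adjusted p = 0.000537). Eef1b2, the beta subunit of the exchange complex that recharges eEF1A with GTP, had 311.8, 311.5, 257.0 and 237.9 CPM in controls and 108.9, 141.3, 143.1 and 164.8 in knockouts (log2 fold change -0.88, SE 0.20, edgeR adjusted p = 0.00328), and Eef1d, the delta subunit, had a log2 fold change of -1.07 (SE 0.22, edgeR adjusted p = 0.00121). Eef1g, the gamma subunit, was not called, with a log2 fold change of -0.76 (SE 0.22, edgeR adjusted p = 0.0298) and overlapping libraries. Eef1d shares genomic sequence with Naprt on its own strand and Eef1b2 with Ndufs1 on the other, so their counts may hold reads of those genes; the library kit keeps strand, but the strand setting of the counting is not given in the sources used here. The eEF2 kinase Eef2k, which inhibits eEF2, did not pass the test (log2 fold change -0.18, SE 0.24, adjusted p = 0.717), nor did Eef1a2, the muscle and neuron form of eEF1A, at 3.57 to 12.8 CPM in controls and 5.73 to 18.7 in knockouts.

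The eIF3 complex, the scaffold that binds the small subunit, was called lower in 5 of its 13 tested subunits, beside 2.63% of all genes, with a median log2 fold change of -0.88 over the 13, beside 0.058. Eif3l had 121.5, 85.5, 129.1 and 139.4 CPM in uninjured controls and 37.9, 58.2, 55.8 and 40.9 in knockouts, and fell by 1.17 on the log2 scale (SE 0.25, edgeR adjusted p = 0.00187). Eif3k, its partner in the complex, had 142.1, 143.2, 104.6 and 102.4 CPM in controls and 37.9, 42.6, 48.7 and 79.0 in knockouts, a fall of 1.13 (SE 0.25, edgeR adjusted p = 0.00301). Neither subunit had a knockout library within the control range. The other called subunits were Eif3e (-1.11, adjusted p = 0.0125), Eif3f (-0.89, adjusted p = 0.00941) and Eif3h (-0.87, adjusted p = 0.0112), and these 3 calls were the least stable: Eif3e and Eif3h each held in 2 of the 8 fits that left out a library, and Eif3f in 4 of 8. Of the subunits, only Eif3l was called without control replicate 2 (beside 225 lower of all genes). With library size alone only Eif3k and Eif3l were (beside 212). No subunit was called with limma on log2 CPM (beside 142), all 16 libraries in 1 fit (beside 70) or the rescaled table (beside 11). Eif3m had the lowest estimate of any member, -1.21 (SE 0.36), but an adjusted p of 0.040. At the other end were the large core subunits Eif3a (-0.50, adjusted p = 0.148), Eif3b (-0.52, adjusted p = 0.160) and Eif3c (-0.57, adjusted p = 0.109), with Eif3d at -0.50. Estimates thus ran from -1.21 to -0.50 over the subunits other than the Eif3j pair. Whether subunits differed from each other was not tested.

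Eif3j1 and Eif3j2 are near-identical copies, and their counts behaved as 1 pool. In each of the 16 libraries all counts of the pair were given to a single copy, to Eif3j1 in 4 libraries and to Eif3j2 in 12. The pair summed to 53 to 99 counts in uninjured controls, 28 to 50 in uninjured knockouts, 30 to 100 in controls at 3 DPI and 23 to 75 in libraries labelled knockout at 3 DPI. No fold change of either copy is given for that reason.

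**Figure D2:**
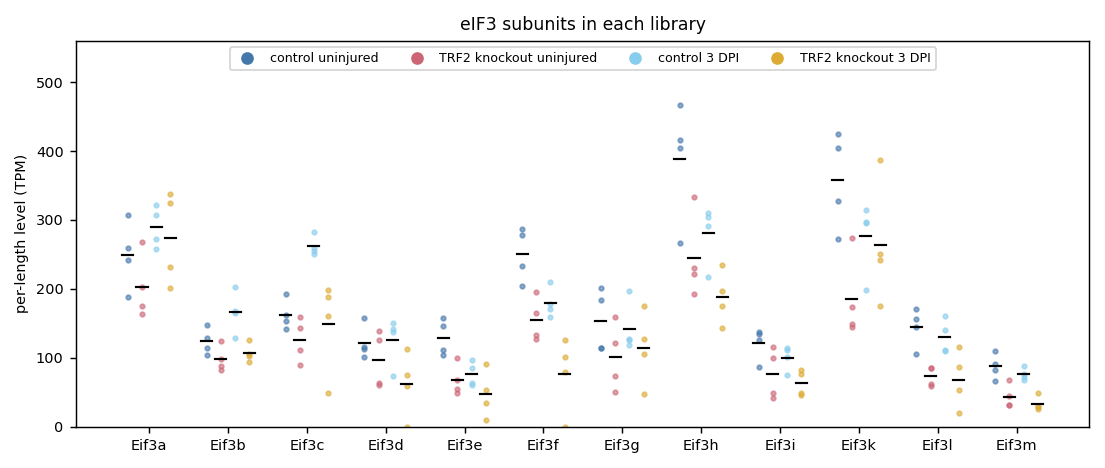
Per-length level (TPM, vertical axis) of 12 eIF3 subunits in each of the 16 libraries, by group; points are libraries and short bars are means of 4, with the Eif3j pair left out because their counts were assigned to 1 copy per library. In uninjured MuSCs the mean was lower in the knockout for each subunit shown, while Eif3c stood highest in controls at 3 DPI.

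Of the cap-binding and helicase factors, 2 of 12 were called lower, beside 2.63% of all genes. The helicase Eif4a1 had 347.6, 340.4, 287.2 and 318.8 CPM in uninjured controls and 126.6, 152.7, 174.6 and 175.7 in knockouts, with no overlap (log2 fold change -0.92, SE 0.19, edgeR adjusted p = 0.00167). Eif4b, the helicase's cofactor, had 782.7, 846.4, 552.3 and 907.7 CPM in controls and 237.9, 474.8, 249.0 and 453.5 in knockouts (log2 fold change -1.001, SE 0.21, edgeR adjusted p = 0.00188). Just outside the threshold were Eif4g2, a scaffold that does not bind eIF4E (-0.69, adjusted p = 0.0219), and Eif4h, a second helicase cofactor (-0.69, adjusted p = 0.0282). The scaffolds Eif4g1 and Eif4g3 had -0.53 and -0.59 (adjusted p = 0.108 and 0.0727) and the paralog Eif4a2 had -0.47 (adjusted p = 0.162). The cap-binding protein and its repressors showed smaller estimates: Eif4e had a log2 fold change of -0.08, Eif4e2 -0.25, Eif4e3 -0.08, Eif4ebp1 -0.16 and Eif4ebp2 -0.04, each with overlapping libraries and an adjusted p of at least 0.660. Eif4ebp3 was too low to be tested.

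Eif5a, which helps ribosomes past stalling sequences and carries the hypusine modification, had 198.3, 172.9, 211.6 and 180.4 CPM in uninjured controls and 85.2, 96.6, 58.7 and 91.3 in knockouts. It fell by 1.07 on the log2 scale (SE 0.21, edgeR adjusted p = 0.000897), and its libraries did not overlap. Its paralog Eif5a2 (0.14) and the subunit-joining inhibitor Eif6 (0.18) did not pass the test.

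Factors of start site selection and of the eIF2 cycle had 0 calls in 18 tested, a count near the all-gene shares of 2.63% lower and 0.584% higher. Eif1, Eif5 and Eif5b, which act in scanning, GTP hydrolysis and subunit joining, had log2 fold changes of -0.29, -0.12 and 0.20 with SEs of 0.20, 0.21 and 0.22. Among eIF2 subunits, the estimates were -0.44 for Eif2s1 (alpha), -0.46 for Eif2s2 (beta) and -0.70 and -0.89 for Eif2s3x and Eif2s3y, the X- and Y-linked gamma copies. Both gamma copies were below the control range in all 4 knockouts, with adjusted p of 0.0727 and 0.181. Eif2s3y was detected in all 16 libraries. The 5 subunits of eIF2B, the exchange factor of eIF2, ran from -0.63 (Eif2b2) to -0.09 (Eif2b3). Eif2a, which can deliver initiator tRNA without eIF2, had -1.13 (SE 0.33, adjusted p = 0.0362). The members not yet named (Eif1a, Eif1ad, Eif1ax, Eif1b, Eif2d, Eif4a3, Eif4e1b, Eif4enif1, Eef1e1 and Eef2kmt) had estimates from -0.60 (Eif1ax) to 0.51 (Eif4e1b), and each had overlapping libraries and was not called. Eif3g (-0.81) and Eif3i (-0.88) were likewise not called.

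**Figure D3:**
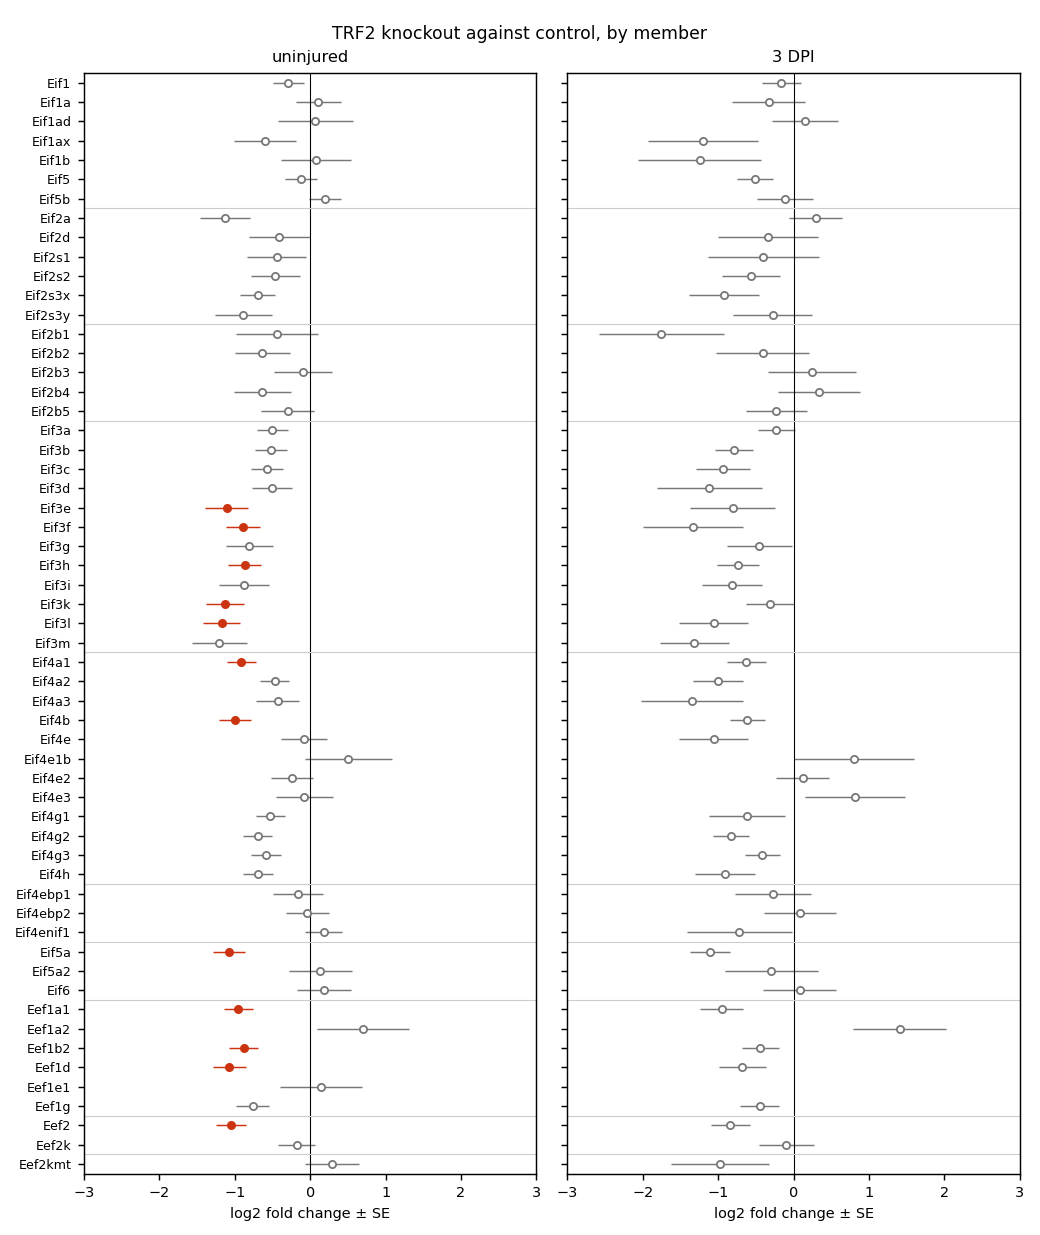
Log2 fold change (± SE, horizontal axis) of TRF2 knockout against control for each tested member, uninjured on the left and 3 DPI on the right, grouped by role; filled red points are members called at adjusted p under 0.02 and fold over 1.5, and the Eif3j pair is left out. The 12 called members all lie below 0 without injury, and 0 are called at 3 DPI.

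At 3 DPI the same comparison called 0 of 57 members in either direction, and 0% of the 14559 genes tested were called higher and 0% lower. At an unadjusted p under 0.05, edgeR gave 15 members lower and 1 higher (Eef1a2), beside 3.58% and 5.78% of all genes. Leaving out 1 library moved the 15 to between 7 (without control replicate 4) and 23 (without the one labelled knockout replicate 3). In both of these fits 0 were higher. DESeq2 called 1 member lower, Eif5a (adjusted p = 0.0176), with 5 genes higher and 17 lower of all tested. limma called 0 members, with 10 and 18 of all genes, and limma-voom 0 members and 0 genes. The members' median log2 fold change was -0.51, beside 0.0014 over all genes, with 46 of 57 below 0, and the libraries labelled knockout lay wholly below the controls for 12 members, beside 4.87% of all genes. Simulated counts with these libraries' spread gave few calls in this comparison (22 of 176 altered genes recovered, 24.7% of the ones altered 2 log2 units and 0% of those altered 1 unit). In the simulated uninjured comparison 92 of 176 were recovered, and 86.9% of the ones altered 2 log2 units and 20.7% of those altered 1 unit. A member without a call at 3 DPI is therefore not shown to be unchanged.

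The 3 smallest p-values at 3 DPI belonged to Eif5a, Eif4g2 and Eef1a1. Eif5a had 251.7, 344.3, 321.6 and 367.0 CPM in controls and 119.2, 154.5, 96.7 and 208.5 in libraries labelled knockout (log2 fold change -1.11, SE 0.26, edgeR adjusted p = 0.452). Eif4g2 had 537.4 to 840.2 CPM in controls and 261.6 to 482.5 in libraries labelled knockout (-0.83, SE 0.24, edgeR adjusted p = 0.452). Eef1a1 had 2219, 2830, 3003 and 3264 CPM in controls and 1854, 1675, 652.1 and 1512 in libraries labelled knockout (-0.95, SE 0.29, edgeR adjusted p = 0.452). In all 3 the groups did not overlap, and replicate 3 was the lowest of the libraries labelled knockout. Without that replicate the log2 fold changes were -0.98, -0.74 and -0.73, with adjusted p of 0.0745, 0.157 and 0.139. That fit called 0 members, and 3 genes higher and 13 lower of the 15430 it tested. Only 2 libraries labelled control and 2 labelled knockout at 3 DPI share a code in the sample records; between these the members' median was -0.36 and 0 were called. For the other libraries the codes are nested within genotype, so anything the code marks and the genotype cannot be told apart.

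The next comparison asked how the factors differed between injured and uninjured control MuSCs. Some libraries of both states share a code in the sample records. The others carry a code found in a single state, so for them anything the code marks and injury cannot be told apart. Here members were called in both directions: 5 of 57 higher and 6 lower, beside 10.8% higher and 9.46% lower of the 15356 genes tested (1652 and 1452 genes), so the members' shares of calls were close to those of all genes. Their median log2 fold change was -0.034, beside 0.066 over all genes. Scaling to library size alone gave 7 members higher and 3 lower, and 1989 and 1066 of all genes. Between these groups the summed myeloid markers differed as 68.3 to 114 against 5149 to 6627 CPM. The 6 proliferation markers differed as 148 to 202 against 740 to 1008. The 12 MuSC markers stood at 4008 to 6146 against 1076 to 1373. The 6 fibroadipogenic markers stood at 561.6 to 901.5 against 1452 to 2144, though Dpt among them was lower at 3 DPI. The endothelial, myofiber and Schwann sums overlapped. The part of cell composition in these changes was not tested.

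The helicase pair moved in opposite directions. Eif4a1 had 347.6, 340.4, 287.2 and 318.8 CPM in uninjured controls and 318.1, 547.5, 568.5 and 663.2 at 3 DPI (log2 fold change 0.74, SE 0.20, edgeR adjusted p = 0.00365), with replicate 1 at 3 DPI inside the uninjured range. Eif4a2 had 361.0, 347.6, 281.4 and 326.6 CPM uninjured and 106.6, 109.9, 150.5 and 122.6 at 3 DPI, with no overlap (-1.38, SE 0.19, edgeR adjusted p = 1.57e-07). Eif4a2 kept its call in all 18 alternative fits and Eif4a1 in 12. On the per-length scale the ratio of Eif4a1 to Eif4a2 was 1.53 to 1.63 in uninjured controls and 4.58 to 8.60 in controls at 3 DPI, and 1.05 to 1.33 in uninjured knockouts and 7.25 to 14.4 in libraries labelled knockout at 3 DPI, so each injured library had a higher ratio than any uninjured one. Within uninjured libraries, each knockout had a lower ratio than any control. Eif4a2 hosts the small nucleolar RNA genes Snord2 and Snora81 in its introns and overlaps Rfc4 on the other strand.

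Other members that rose in injured controls were Eif5a (0.79, SE 0.19, adjusted p = 0.0011), Eif3c (0.69, SE 0.19, adjusted p = 0.00422), Eif6 (1.06, SE 0.31, adjusted p = 0.00693) and Eif2s2 (0.77, SE 0.24, adjusted p = 0.011). Eif3c stood at 165.1 to 250.2 CPM uninjured and 287.2 to 374.4 at 3 DPI, and Eif5a at 172.9 to 211.6 and 251.7 to 367.0, both without overlap. Eif6, which keeps the large subunit from joining early, had 25.02, 45.02, 16.3 and 35.1 CPM uninjured and 32.4, 76.8, 62.9 and 73.2 at 3 DPI, and its groups overlapped. Of the 5 calls, Eif5a held in all 8 fits that left out a library and Eif2s2 in 2; without control 3 DPI replicate 4, Eif5a was the only member called higher.

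Members that fell in injured controls included both main elongation factors. Eef2 went from 4151 to 5972 CPM uninjured to 1489, 1906, 1892 and 2343 at 3 DPI (log2 fold change -1.29, SE 0.19, edgeR adjusted p = 4.53e-07), and Eef1a1 to the 2219 to 3264 CPM given above (-0.67, SE 0.18, edgeR adjusted p = 0.00449). Neither gene had overlapping groups. Eif4b fell by 0.86 (SE 0.20, edgeR adjusted p = 0.000681), from 552.3 to 907.7 CPM to 284.1 to 529.9, and was called in every alternative fit, as were Eef2 and Eif4a2. Eef1d (-0.70, adjusted p = 0.0107) and Eif4g3 (-0.64, adjusted p = 0.0123) completed the 6; they held in 2 and 3 of the 8 fits that left out a library, and without control 3 DPI replicate 1 the members called lower were Eef2, Eif4a2 and Eif4b. Eef1b2 (-0.08) and Eef1g (-0.15), the other exchange complex subunits, did not pass the test, nor did Eif4e (0.64, adjusted p = 0.0749) or Eif2s1 (0.86, adjusted p = 0.0233).

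**Figure D4:**
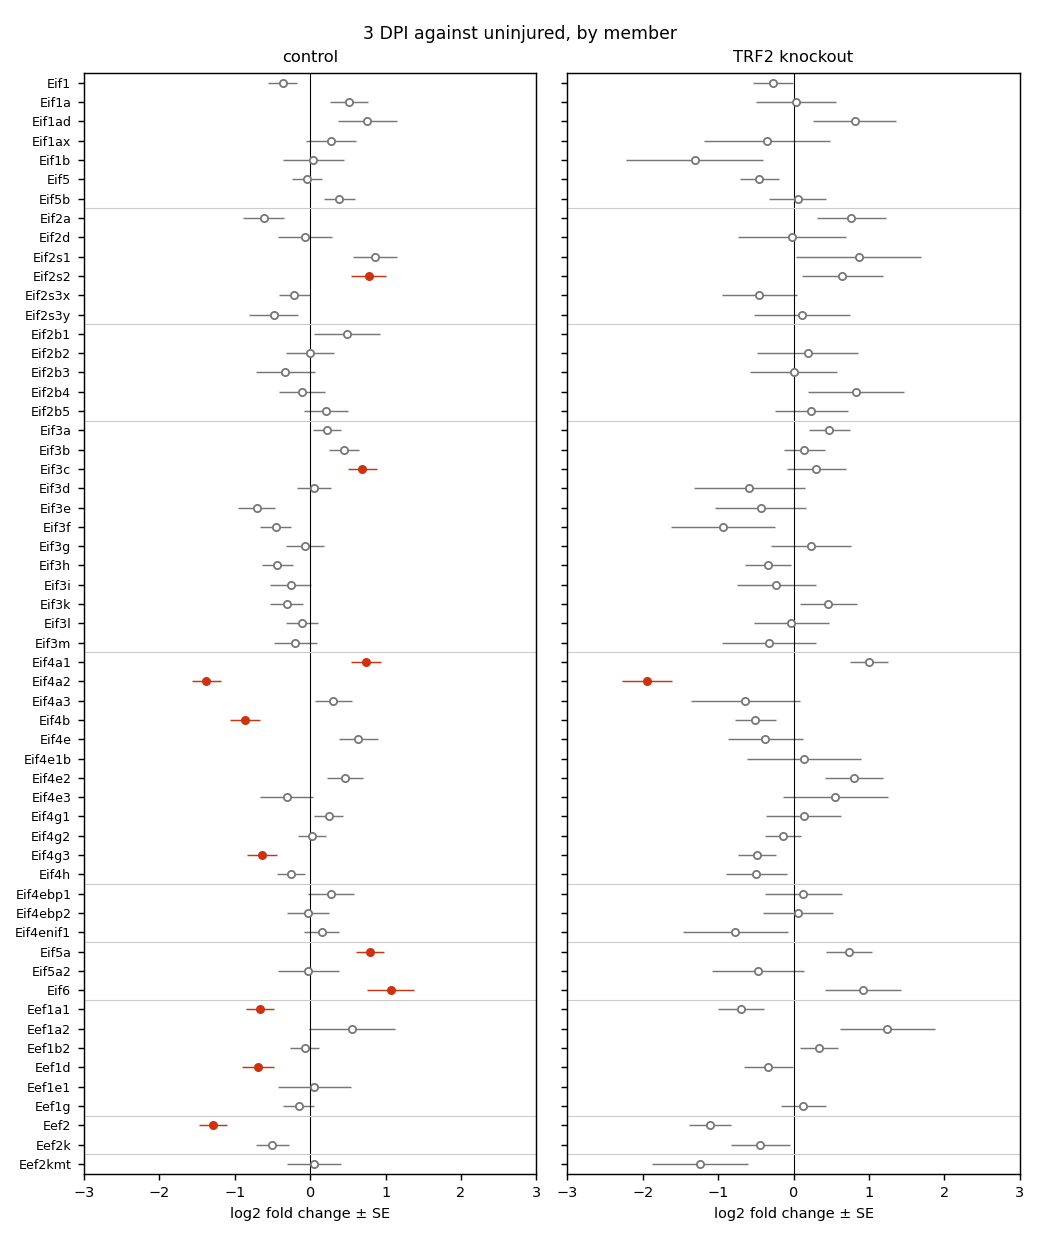
Log2 fold change (± SE, horizontal axis) of 3 DPI against uninjured for each tested member, in controls on the left and TRF2 knockouts on the right, grouped by role; filled red points are members called at adjusted p under 0.02 and fold over 1.5, and the Eif3j pair is left out. Controls show 5 calls above 0 and 6 below, and Eif4a2 is the single call in the libraries labelled knockout.

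In the libraries labelled TRF2 knockout injury called 0 of 56 members higher and 1 lower, beside 2.43% and 1.61% of the 14578 genes tested. Between these groups the summed myeloid markers stood at 121 to 188 and 2148 to 5979 CPM. The proliferation markers stood at 160 to 189 and 517 to 844, and the MuSC markers at 2317 to 3097 and 565 to 803. The fibroadipogenic markers stood at 477.9 to 911.7 and 1147 to 2345. Among them the mean of Col1a1 went from 418.3 to 1447 CPM, and those of Pdgfra, Lum and Ly6a were also higher at 3 DPI. Mean Dpt (78.3 and 53.5) and mean Dcn (108.9 and 107.6) were not higher. The 10 myofiber markers stood at 212.5 to 311.7 and 312.2 to 539.3, so the sums nearly touched. The 539.3 was that of the library labelled knockout 3 DPI replicate 3. Mean Myh1 (70.8 and 131.6 CPM) and Myh4 (39.8 and 83.5) were higher at 3 DPI. Acta1 hardly moved (25.7 and 25.9), and Pvalb alone had a lower mean at 3 DPI (5.21 and 2.04). The endothelial and Schwann sums overlapped. The part of these markers in the result was not tested. As in controls, only some libraries of both states share a code in the sample records. The call was Eif4a2, with 150.3, 231.7, 224.7 and 266.9 CPM uninjured and 78.3, 66.9, 26.0 and 66.4 at 3 DPI (log2 fold change -1.94, SE 0.33, edgeR adjusted p = 0.00232). The groups did not overlap. The next smallest p-values were those of Eif4a1, at 126.6 to 175.7 CPM uninjured and 278.4 to 459.2 at 3 DPI (1.00, SE 0.25, edgeR adjusted p = 0.0274), and Eef2, at 1484 to 2925 and 588.9 to 1321 CPM (-1.11, SE 0.28, edgeR adjusted p = 0.0294). Without the one labelled knockout 3 DPI replicate 3, the library with few genes detected, both were called (1.07, adjusted p = 0.00238, and -0.89, adjusted p = 0.00909), and Eif4a2 had -1.67 (adjusted p = 2.72e-05). The simulated counts gave 23 of 173 changed genes recovered in this comparison and 109 of 175 in injured controls.

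**Figure D5:**
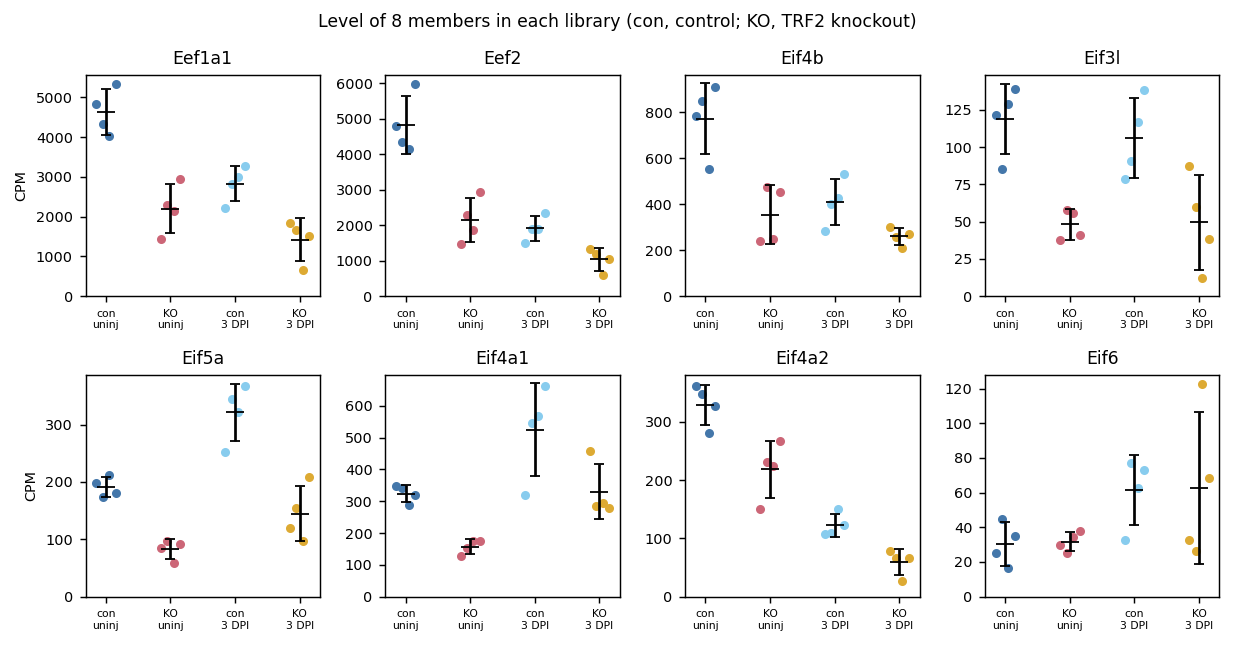
Level (CPM, vertical axis) of 8 members in each library of the 4 groups; points are libraries, the bar is the mean of 4 and the whiskers are 1 SD. Eef1a1, Eef2, Eif4b and Eif4a2 stand highest in uninjured controls, and Eif4a1 and Eif5a in controls at 3 DPI.

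Whether injury acted differently in the 2 genotypes was tested as an interaction over all 16 libraries. Of 59 members tested 0 were called higher and 0 lower, beside 0% and 0.0178% of 16822 genes. At an unadjusted p under 0.05, edgeR gave 2 members higher, Eif2a and Eif3k, and 0 lower, beside 3.57% and 2.17% of all genes, so the members' share was near that of all genes. Their values are given as a description. Eif2a had 68.8, 63.0, 39.5 and 60.5 CPM in uninjured controls, 10.7, 26.0, 30.1 and 31.3 in uninjured knockouts, 30.9 to 44.4 in controls at 3 DPI and 41.5 to 45.9 in libraries labelled knockout at 3 DPI. It was low in uninjured knockouts and at like levels in both genotypes at 3 DPI, and its interaction estimate was 1.49 on the log2 scale (SE 0.50, edgeR adjusted p = 0.612). limma called it (adjusted p = 0.00697), in a fit that called 45 of all genes higher and 78 lower. Its adjusted p over the 24 alternatives ran up to 1. Eif3k had an estimate of 0.89 (edgeR adjusted p = 0.862) and Eef2kmt, the methyltransferase of eEF2, -1.17 (edgeR adjusted p = 0.911). For the members called in 1 genotype or state only, such as Eif5a (interaction 0.046, SE 0.34) and Eef1a1 (0.083, SE 0.37), the effects are thus not shown to differ.

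Members taken as known TOP mRNAs (Eef1a1, Eef1b2, Eef1d, Eef1g, Eef2, Eif3e, Eif3f and Eif3h) were called lower in uninjured knockouts in 7 of 8, beside 2.63% of all genes, with a median log2 fold change of -0.92 beside 0.058. The count was 3 of 8 without control replicate 2 (Eef1a1, Eef1d and Eef2), and 4 without control replicate 4, without knockout replicate 1 or with library size alone. It was 1 (Eef2) with limma on log2 CPM or with all 16 libraries in 1 fit, and 0 with the rescaled table. At 3 DPI their median was -0.77, beside 0.0014, with 0 calls and 0% of all genes. In injured controls 3 of 8 were called lower, beside 9.46% of all genes, and 0 higher (median -0.56, beside 0.066). Between injured and uninjured libraries labelled knockout 0 of 8 were called, beside 1.61% lower over all genes (median -0.39, beside 0.0071). Both genotype comparisons are of different libraries, whereas the uninjured controls enter both the first comparison and that of injury in controls.

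Other genes of the translation pathway were taken by list. Among 15 partners and kinases of the cap complex, 1 was called in uninjured knockouts, where 2.63% of all genes were called lower: Pabpc1, the poly(A)-binding protein and itself encoded by a TOP mRNA, fell from 391.8 to 610.2 CPM to 114.8 to 306.5 (log2 fold change -1.06, SE 0.22, edgeR adjusted p = 0.00152). In injured controls 2 of these 15 were higher, Cyfip1, an eIF4E-binding repressor (1.31), and Mknk1, the kinase of eIF4E (0.96). Pdcd4, an inhibitor of eIF4A (-1.10), and Gigyf2, a partner of Eif4e2 (-0.68), were lower; 10.8% of all genes were higher and 9.46% lower in that comparison, so the list's share was near that of all genes. The list of eIF2 kinases and phosphatase subunits also held Impact. Of its 7 tested genes, 0 were called by genotype in either state. Ppp1r15a, the inducible subunit that reverses eIF2 alpha phosphorylation, was lower after injury in controls (-1.76, edgeR adjusted p = 6.71e-10). It was also lower after injury in libraries labelled knockout (-1.53, edgeR adjusted p = 0.00178). Ppp1r15a stood at 743 to 1068 CPM in uninjured controls and 223.8 to 317.7 at 3 DPI. Cyfip1 was also higher after injury in libraries labelled knockout (1.30). The enzymes that modify eIF5A and eEF2 (8 tested) and the termination and recycling factors (6 to 8 tested) had 0 calls in the 5 comparisons, and of the mitochondrial factors 1 was called, Tufm, the mitochondrial elongation factor Tu, in injured controls (0.85, edgeR adjusted p = 0.0111), where 1 of 8 is near the 10.8% of all genes called higher. For the lists with 0 calls, the shares of all genes called are those given with each comparison above. Phosphorylation and translation itself were not measured.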

How the data were processed

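RNA was extracted with a Direct-zol kit and libraries made with the CORALL total RNA kit. The submitters' processing notes name Trim Galore 0.6.7, STAR 2.6.1d, Salmon 1.5.2 and build GRCm38 (mm10); the study's methods give another STAR version. The authors deposited estimated counts per gene from Salmon and a second table of estimated counts rescaled by abundance, used here as an alternative and, divided by its library total, as the per-length TPM scale. The kit adds unique molecular identifiers; whether they were used to remove duplicates is not given in the sources used here.

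Estimated counts were rounded and tested with edgeR 4.0.16 (filterByExpr, TMM, robust quasi-likelihood) in R 4.3.3, within the groups compared, and the interaction over 16 libraries. This replaces the study's robust limma fit on log2 CPM. A fit of that kind was run as an alternative (limma 3.58.1, prior count 2), as were limma-voom and DESeq2 1.42.0. CPM printed as levels use TMM factors over 16 libraries. The pipeline was tested on simulated data. Of genes changed by known amounts it gave 0 wrong signs, and it made at most 1 false call in each simulated comparison. The members, lists and tests were chosen with earlier results of these data known. Members named with values were up to 8 called per direction by smallest p, the 3 smallest p where fewer than 3 were called, and fixed sets of paralogs, elongation factors, eIF3 and eIF2B subunits; others were added after their values were seen. The lists of known TOP mRNAs and pathway genes came from textbook knowledge. Gene positions came from GENCODE M21 and start sequences from RefSeq; protein sequences were not used here. The design text calls the 4 libraries of a group biological replicates.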

Additional observations from a re-analysis of the deposited data

Results flagged for a closer look

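Screening covered 144 groups of 4 values (members by group) and not all 60 members. In 13 groups, 1 library stood apart from the other 3 by more than Dixon's 95% critical value, and chance flags about 1 in 20. At 3 DPI in controls, Eif2s3x was low in replicate 3 (75.7 CPM, others 103.5 to 106), Eif3k was low in replicate 1 (58.7, others 105.2 to 110.9), and Eif4ebp1 was high in replicate 4 (73.2, others 34.4 to 38.9). In libraries labelled knockout at 3 DPI, Eif4a1 was high in replicate 1 (459.2 CPM, others 278.4 to 295), Eif4e3 was high in replicate 3 (121.5, others 11.5 to 26.8), Eif4ebp1 was low in replicate 2 (9.23, others 44.6 to 47.9), Eif4ebp3 was high in replicate 1 (17.5, others at 0) and Eif5a2 was low in replicate 4 (4.66, others 21.0 to 24.2). In uninjured controls, replicate 3 was low for Eif4e2 (36.0 CPM, others 65.7 to 71.5) and Eif4e3 (13.95, others 38.4 to 42.9). In uninjured knockouts, Eif4ebp2 was high in replicate 2 (66.5 CPM, others 40.1 to 42.2). Eif3j1 was 56.3 CPM in uninjured control replicate 1 and 98.4 in control 3 DPI replicate 3 with the others of its group at 0, where the counts of the pair went to the other copy.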

How the results depend on the processing

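No called member changed direction in any alternative. For named members, 32 log2 fold changes were followed, which gave 598 values under alternatives. Of these, 477 kept their side of the threshold, 12 gained a call and 109 lost it. The numbers of members called are not part of this tally and are given next. The 12 members lower in uninjured knockouts became 3 with limma on log2 CPM, Eef2, Eif4a1 and Eif5a (all genes 157 higher, 142 lower). They became 0 with the rescaled table (all genes 6 and 11) and 2 with all 16 libraries in 1 fit (all genes 12 and 70). Leaving out 1 library gave 7 (without control replicate 2, all genes 40 and 225) to 16 (without control replicate 3, all genes 86 and 488). DESeq2 gave 1 lower at 3 DPI (all genes 5 higher, 17 lower), where leaving out a library gave 0 in each fit. In injured controls the 5 higher became 0 with the rescaled table (all genes 1088 higher, 1084 lower). They became 0 with 16 libraries in 1 fit (all genes 861 and 734). The 6 lower became 3 with library size alone (all genes 1989 and 1066) and 3 with 16 libraries. Leaving out 1 library gave 1 (without control 3 DPI replicate 4, all genes 1418 and 1284) to 4 higher. It gave 3 (without control 3 DPI replicate 1, all genes 1559 and 1271) to 7 lower. For injury in libraries labelled knockout, 1 member was higher and 2 lower with DESeq2 (all genes 568 higher, 425 lower). The same member counts came with at least 10 counts in every library (all genes 445 and 294) and 16 libraries (721 and 483). They also came at an adjusted p under 0.05 with no minimum fold (all genes 489 and 362). Library size alone gave 1 higher and 1 lower (all genes 440 and 211), and limma-voom 0 and 2 (233 and 256). Leaving out 1 library gave 0 to 1 higher and 1 to 2 lower. The 1 and 2 came without the one labelled knockout 3 DPI replicate 3 (all genes 803 and 513). For the interaction, limma gave 1 higher (all genes 45 higher, 78 lower). Leaving out a library gave 0, with at most 4 of all genes higher and 9 lower. The causes were not tested. Library size alone moved the median of all genes from 0.058 to 0.24 in the uninjured comparison and from 0.066 to 0.23 in injured controls, with the members' medians at -0.33 and 0.13.

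Replicate numbers were not taken to pair libraries: correlations of same-numbered deviations ran from -0.11 to 0.111. With the number as a replicate block, 14 members were lower in uninjured knockouts (all genes 88 higher, 448 lower) and 0 at 3 DPI (0 and 0), 4 were higher and 5 lower in injured controls (1538 and 1299), 1 was lower with injury in libraries labelled knockout (220 and 144) and 0 were called for the interaction (0 and 1). Low members are limited most by background in libraries labelled knockout at 3 DPI. There the receptor genes' 95th percentile was 28.5 TPM, and 10 of 60 members lay at or under it. These include Eif3j1, where all counts of the pair went to Eif3j2.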
